A study of Homo sapiens with 6 samples.

Results

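Cyclin-dependent kinase inhibitors are small proteins that bind and block the kinases which drive the cell cycle, and SKP2 with its cofactor CKS1B marks some of them for destruction. The genes followed here are the inhibitor genes CDKN1A, CDKN1B, CDKN1C, CDKN2A, CDKN2B, CDKN2C and CDKN2D together with SKP2 and CKS1B. They were chosen by name, with earlier results of these data known. Every probe set annotated to exactly 1 gene of this list was taken. Of the 9 genes, 8 had such a probe set, with 19 probe sets among the 49395 of the table and 8 genes among 18132. CDKN2C was not analysed here.

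The data are 6 Affymetrix arrays of T24, an established line of human bladder carcinoma cells. MAP30, a ribosome-inactivating protein from bitter melon, was given to the cells of 3 arrays at 10 µg/ml for 48 hours. The other 3 arrays carry control cells, for which the labels name no agent and no time. Both groups grew in the same serum-containing medium, and no label says that replicates were separate cultures, so each p-value measures only a spread that may be technical. The values are log2 expression, and each probe set had been centred on its median over the 6 arrays. A value of 0 is therefore the middle of that probe set's own range, and neither the level of a gene nor the expression of any T24 marker can be read from the table.

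The inhibitors form 2 families. The Cip/Kip proteins, encoded by CDKN1A (p21), CDKN1B (p27) and CDKN1C (p57), bind cyclin and kinase together and act mainly on CDK2 complexes. The INK4 proteins, encoded by CDKN2A (p16, with the unrelated ARF protein read from another frame), CDKN2B (p15), CDKN2C (p18) and CDKN2D (p19), bind CDK4 and CDK6 and keep cyclin D away. SKP2 is the F-box subunit of an SCF ubiquitin ligase, and CKS1B is the small adaptor that lets it grip phosphorylated p27. Much of this control works on protein stability, which arrays do not measure.

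After MAP30, SKP2 fell 8.33-fold and CDKN2B rose 6.61-fold, the widest changes in this group of genes. CDKN1A rose 2.22-fold. CDKN1B and CKS1B were 1.52-fold and 1.5-fold lower, CDKN1C and CDKN2A were lower by small amounts, and CDKN2D did not pass. With limma, and p-values adjusted by Benjamini and Hochberg across the 18132 genes (threshold 0.05), 2 of the 8 measured genes were called higher and 5 lower, and 1 missed the threshold. Over the whole array, 26.9% of genes were called higher and 30.6% lower, 57.5% in all, so a call by itself is common here. The groups did not overlap in 7 of the 8 genes, and in 62.6% of all genes. The 8 genes had a median absolute log2 fold change of 0.59, beside 0.19 over all genes. Because the genes were chosen with earlier results of these data known, this contrast is a description only. In bulk RNA, a change in the share of cells that express a gene and a change in RNA per cell cannot be told apart.

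**Figure D1:**
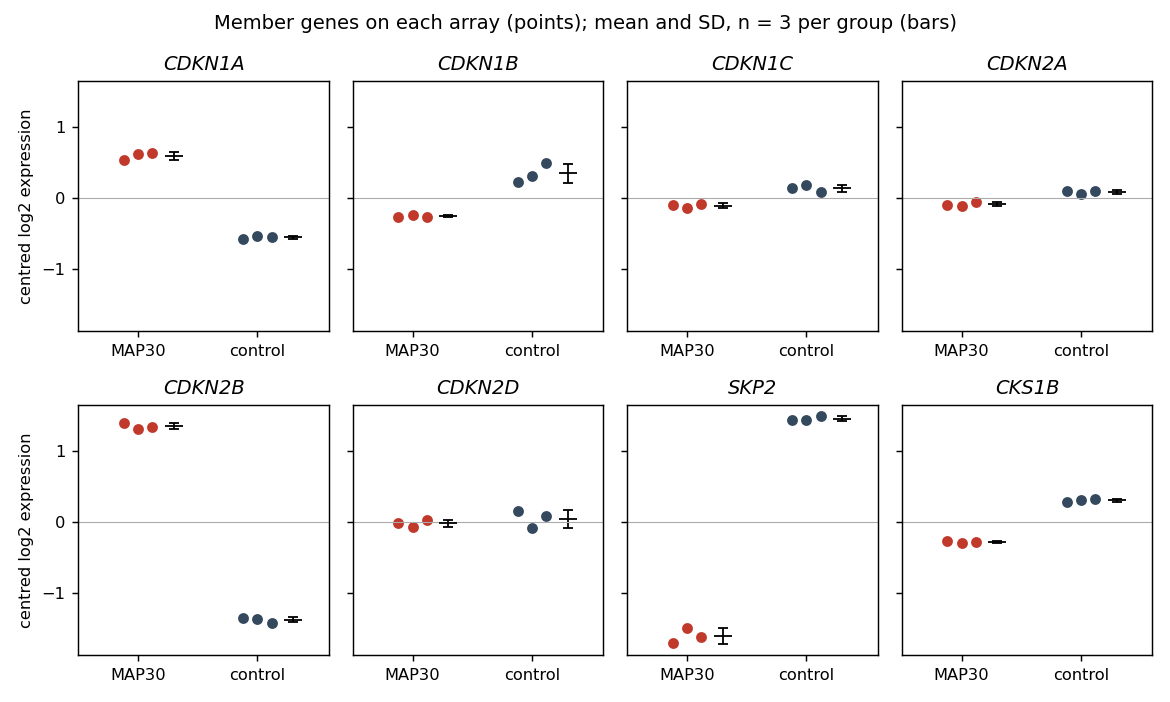
Centred log2 expression of the 8 measured genes (vertical axis) on each array, MAP30 at the left and control at the right of each panel; points are arrays and bars are the mean and SD of 3. The groups lie apart in 7 panels and overlap for CDKN2D, and the widest separations are those of SKP2 and CDKN2B.

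The promoters of the 2 genes of the ligase that fell and of the 2 inhibitor genes that rose are shown so that the sequence beside each start site can be compared. Each runs from 250 bases before to 50 bases after an annotated start in RefSeq on GRCh38.p14, written 5′ to 3′ on the strand of the gene. Capitals mark the letters of short motifs found on either strand. The motifs searched were the NF-Y box CCAAT, the core GGGCGG of the GC box, E2F-type letters (TTCCCGC, also searched as the variant TTGGCGC), the cell cycle homology core TTTGAA, the cyclic AMP response core TGACGT, the AP-1 letters TGANTCA, the E-box CACGTG of MYC and its partners, and the forkhead core TAAACA.
SKP2 (chr5:36151861-36152160, + strand): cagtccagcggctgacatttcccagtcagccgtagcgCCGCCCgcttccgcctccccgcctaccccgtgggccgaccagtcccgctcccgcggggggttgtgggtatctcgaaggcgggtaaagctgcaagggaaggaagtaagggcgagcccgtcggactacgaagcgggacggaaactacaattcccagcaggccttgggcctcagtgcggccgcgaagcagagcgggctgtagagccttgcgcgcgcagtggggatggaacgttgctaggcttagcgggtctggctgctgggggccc
CKS1B (chr1:154974431-154974730, + strand): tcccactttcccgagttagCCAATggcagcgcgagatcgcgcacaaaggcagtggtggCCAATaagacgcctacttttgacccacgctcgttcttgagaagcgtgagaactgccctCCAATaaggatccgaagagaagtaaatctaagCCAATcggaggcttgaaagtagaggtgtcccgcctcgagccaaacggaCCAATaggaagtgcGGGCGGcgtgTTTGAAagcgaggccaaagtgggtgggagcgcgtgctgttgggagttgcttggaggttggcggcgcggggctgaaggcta
CDKN2B (chr9:22009256-22009555, - strand): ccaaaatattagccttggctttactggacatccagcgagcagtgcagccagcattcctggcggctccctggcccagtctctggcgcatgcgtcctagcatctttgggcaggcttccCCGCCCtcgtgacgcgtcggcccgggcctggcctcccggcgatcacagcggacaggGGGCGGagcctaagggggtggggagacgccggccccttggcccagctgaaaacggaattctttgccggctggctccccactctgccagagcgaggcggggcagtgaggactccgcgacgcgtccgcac
CDKN1A (chr6:36678464-36678763, + strand): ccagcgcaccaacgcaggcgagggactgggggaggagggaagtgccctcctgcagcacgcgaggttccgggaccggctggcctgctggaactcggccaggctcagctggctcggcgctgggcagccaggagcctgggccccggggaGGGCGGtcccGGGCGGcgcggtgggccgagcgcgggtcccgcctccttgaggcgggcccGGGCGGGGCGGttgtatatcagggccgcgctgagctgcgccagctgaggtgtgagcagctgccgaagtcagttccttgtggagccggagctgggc

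CCAAT stood 5 times in the CKS1B promoter, and TTTGAA lay there from -30 to -25, counted from 0 at the start site. The SKP2 window held neither and had 1 GGGCGG, on the opposite strand. The CDKN1A window held 4 copies of GGGCGG, of which 2 share a base, and the CDKN2B window held 2. GGGCGG occurs in 45.0% of the 35116 promoter windows in the RefSeq table, CCAAT in 34.6% and TTTGAA in 15.2%. The E2F-type letters, found in 6.55% (first form) and 3.04% (second form) of all windows, were absent from these 4 windows. The cyclic AMP, AP-1, E-box and forkhead letters, in 7.98%, 7.71%, 7.26% and 12.3% of all windows, were absent from them too. A match of letters is a description of the window and not a bound site.

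SKP2 stood at -1.70, -1.49 and -1.62 on the MAP30 arrays and at 1.43, 1.44 and 1.49 on the control arrays. Every MAP30 array was far below every control array, and the gap between groups was many times the spread within them. The mean was -1.61 ± 0.11 with MAP30 and 1.45 ± 0.03 in control (SD, n = 3 each). The log2 fold change was -3.06 ± 0.06 SE, with a limma adjusted p of 1.64e-08. Of all 18132 genes it was the third lowest. Both SKP2 probe sets gave the fall, at -2.96 for 11739144_a_at and -3.15 for 11760241_a_at. The first of these scattered more with MAP30, at -1.89, -1.32 and -1.61, than the second, at -1.51, -1.66 and -1.64. With quantile normalization of the centred values, SKP2 stood at -4.30, while CDKN2B went from 2.73 to 2.29.

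CKS1B stood at -0.28, -0.30 and -0.29 with MAP30 and at 0.28, 0.31 and 0.31 in control. The arrays of each group lay close together, and the groups did not overlap. Its log2 fold change was -0.59 ± 0.03 SE (limma adjusted p = 1.82e-06). The 3 probe sets lay between -0.61 and -0.58 and no difference among them passed (limma diffSplice adjusted p from 0.746 to 0.913). All 3 belong to the classes _s_at and _x_at, whose probes can bind transcripts of other genes. The same classes hold 11715388_s_at of CDKN1A, 11717091_s_at of CDKN1B, 11763718_x_at of CDKN1C and 11753745_x_at of CDKN2A. Whether such binding enters these values was not tested. The paralogue CKS2, measured by 1 probe set, was at -0.55 ± 0.04 SE. The change of SKP2 minus that of CKS1B was -2.47 on the log2 scale (exact permutation p = 0.1, the smallest that 3 arrays against 3 can give, and 0.1 after adjustment over 4 such comparisons).

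Among the Cip/Kip genes, CDKN1A went one way and the other genes the opposite way. CDKN1A, the classic target of p53, stood at 0.53, 0.62 and 0.63 with MAP30 and at -0.58, -0.53 and -0.55 in control. All MAP30 arrays lay above all control arrays. Its log2 fold change was 1.15 ± 0.04 SE (limma adjusted p = 2.04e-07), and its 2 probe sets gave 1.13 and 1.17. CDKN1A ranked 747th from the highest of all genes.

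CDKN1B, whose protein p27 is the best known substrate of SKP2, stood at -0.26, -0.23 and -0.26 with MAP30 and at 0.23, 0.32 and 0.49 in control. The MAP30 arrays were tight, while the control arrays spread, with SDs of 0.02 and 0.13. The log2 fold change was -0.60 ± 0.06 SE (limma adjusted p = 9.7e-05). The spread came from 11748603_a_at, at -0.28, -0.32 and -0.27 with MAP30 and at 0.27, 0.45 and 0.84 in control. The other probe set, 11717091_s_at, was steady, at -0.24, -0.15 and -0.26 with MAP30 and at 0.20, 0.18 and 0.15 in control. The 2 probe sets gave -0.81 and -0.39. Their difference of 0.41 had a diffSplice adjusted p of 0.0493, which passed under 3 of 11 alternatives and ranged from 0.00977 to 0.16. Without control replicate 3, the highest array, CDKN1B was at -0.53 and still passed.

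CDKN1C, an imprinted inhibitor gene, had -0.10, -0.14 and -0.08 with MAP30 and 0.15, 0.18 and 0.09 in control. The groups lay close but did not overlap. Its log2 fold change was -0.25 ± 0.04 SE (limma adjusted p = 0.000913), from probe sets at -0.39, -0.22 and -0.12. The call of the last, 11763717_a_at, was lost with quantile normalization (adjusted p = 0.0836), with the replicate block (0.0761) and without any 1 array other than control replicate 3 (0.0658 to 0.102). After centring the arrays on their poly-A spike-in controls, the gene value of CDKN1C was -0.08 and did not pass (limma adjusted p = 0.0891).

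In the INK4 family the neighbouring genes CDKN2B and CDKN2A were called in opposite directions. CDKN2B stood at 1.40, 1.31 and 1.34 with MAP30 and at -1.35, -1.36 and -1.42 in control. Each MAP30 array exceeded each control array by at least 2.66 on the log2 scale. CDKN2B, known elsewhere as a gene induced by TGF-beta, had a log2 fold change of 2.73 ± 0.04 SE (limma adjusted p = 7.37e-09) and ranked 70th from the highest of all genes.

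The CDKN2B probe sets rose by unequal amounts. 11726508_a_at was at 1.75, 1.81 and 1.68 with MAP30 and at -1.85, -1.68 and -1.72 in control, an 11.3-fold rise. 11736163_a_at rose 9.26-fold. 11726507_a_at was at 0.78, 0.57 and 0.76 with MAP30 and at -0.57, -0.77 and -0.98 in control, a 2.78-fold rise. The difference of that last probe set from the others of its gene was -1.88 on the log2 scale (limma diffSplice adjusted p = 1.77e-10), and this held under all 11 alternatives that gave a value. Across the array, 37.3% of probe sets differed from the others of their gene, so such a split is common. Which CDKN2B transcript each probe set reads was not tested.

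**Figure D2:**
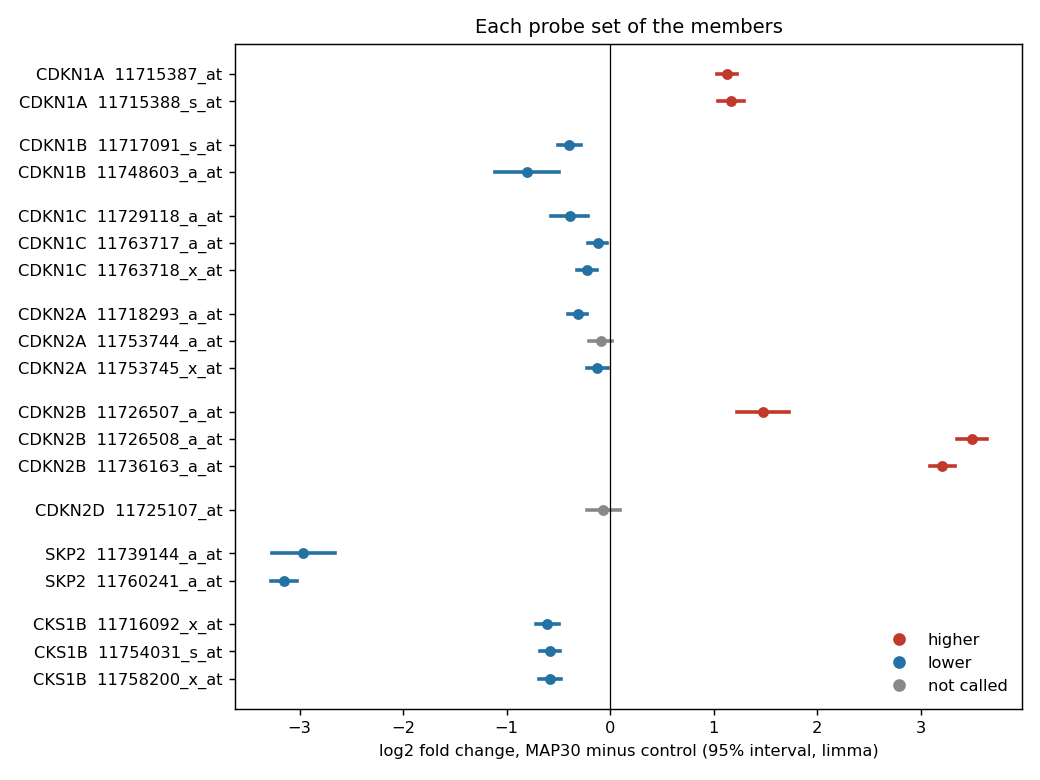
Log2 fold change of MAP30 minus control (horizontal axis) for each of the 19 probe sets, with its 95% interval from limma; colour gives the call after adjustment over all probe sets. Of the 19, 5 were higher, 12 lower and 2 not called, and the 3 probe sets of CDKN2B spread from 1.47 to 3.49.

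CDKN2A had -0.09, -0.11 and -0.06 with MAP30 and 0.10, 0.06 and 0.11 in control. The groups did not overlap, but the step between them was small. The log2 fold change was -0.18 ± 0.03 SE (limma adjusted p = 0.00279). 11718293_a_at, at -0.31, carried most of it. 11753744_a_at, at -0.09, did not pass (adjusted p = 0.139), and 11753745_x_at, at -0.12, passed narrowly (adjusted p = 0.0422). That last call was lost with quantile normalization (adjusted p = 0.0788), with the replicate block (0.0695) and without any 1 array other than MAP30 replicate 3 (0.061 to 0.124). 11718293_a_at differed from the others by -0.20 (diffSplice adjusted p = 0.0024), a call kept under all 11 alternatives that gave a value. With poly-A-control centring CDKN2A stood at -0.01 and did not pass (adjusted p = 0.747). RefSeq lists a pair of start sites for this gene, and which product each probe set reads was not tested. The change of CDKN2B minus that of CDKN2A was 2.90 on the log2 scale, and minus that of CDKN1A it was 1.58 (exact permutation p = 0.1 each, the smallest possible, and 0.1 after adjustment over 4 comparisons).

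CDKN2D was measured by 1 probe set, at -0.02, -0.07 and 0.02 with MAP30 and at 0.15, -0.09 and 0.08 in control. The groups overlapped. Its log2 fold change of -0.07 had a 95% interval from -0.22 to 0.08 (limma adjusted p = 0.426), which leaves room for a small change either way. With hybridization-control centring it stood at -0.275 and passed (adjusted p = 0.00305).

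Over the 19 probe sets, 5 were called higher and 12 lower, where 26.2% and 30.1% of all probe sets were, 56.3% in all. The groups did not overlap in 17 of them, and in 61.9% of all probe sets. A probe set differed from the others of its gene in 9 of 18 cases that could be tested, beside 37.3% of those tested over the array. The 9 lay in CDKN1B, CDKN1C, CDKN2A and CDKN2B, and the 2 of CDKN1B are the same difference of 0.41 with opposite sign. The count of 9 became 7 under either spike-in centring. It ran from 4 to 6 when any 1 array was left out. The lowest counts came without MAP30 replicate 2 or control replicate 2, and the count was 5 without MAP30 replicate 3. With all 6 arrays on the deposited scale, no probe set of SKP2, CDKN1A or CKS1B passed this test. Without MAP30 replicate 1 the SKP2 probe sets differed by 0.38 (diffSplice adjusted p = 0.0219).

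The array scale bears on the small changes. The mean of the 18 hybridization-control probe sets was higher with MAP30 by 0.21, and that of the 24 poly-A-control probe sets changed by -0.16. The median log2 change over all genes was -0.23 after hybridization-control centring and 0.14 after poly-A-control centring, against -0.02 as deposited. Rises made up 21.1% and 70.3% of the calls under these centrings, against 46.8%. SKP2, CDKN1A, CDKN1B, CDKN2B and CKS1B kept direction and call under both. Among the array's RNA quality probes, the difference between the 3' and 5' ends of ACTB averaged 0.078 ± 0.007 with MAP30 and -0.080 ± 0.021 in control on the log2 scale (SD, n = 3 each, centred values). For GAPDH it averaged 0.021 with MAP30 and -0.022 in control. The part of these shifts in the results was not tested.

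**Figure D3:**
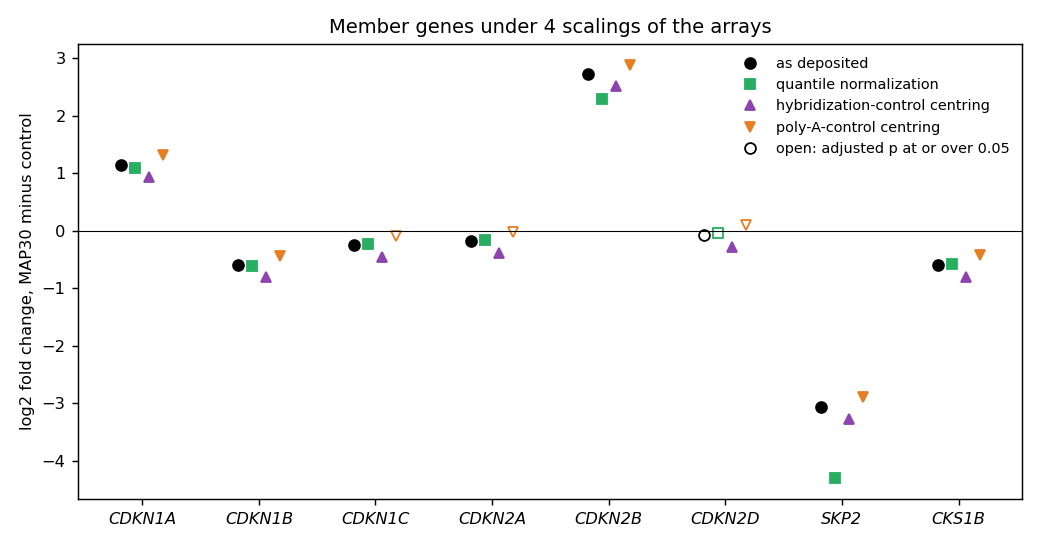
Log2 fold change of MAP30 minus control (vertical axis) of the 8 measured genes under 4 scalings; filled symbols passed and open symbols did not. The wide changes of SKP2, CDKN2B and CDKN1A hold their sign throughout, while CDKN1C and CDKN2A lose their call with poly-A-control centring and CDKN2D gains one with hybridization-control centring.

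Around these genes, 7 lists of ligase parts, regulators and targets held 71 measured genes of 75. Of these, 20 (28.2%) were higher and 44 (62.0%) lower, where 26.9% and 30.6% of all genes were, so the share of rises was near that of the whole array. Their median log2 change was -0.37 beside -0.02 over all genes. Some genes stand in more than 1 list. All lists were written with earlier results of these data known.

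The SCF core and its partners fell in 6 of 7 measured genes, with a median of -0.37. CUL1, the scaffold of the ligase, was at -0.72, the ubiquitin-conjugating enzyme gene UBE2R2 at -0.61, CKS2 at -0.55 and the adaptor gene SKP1 at -0.37. CDC34, another conjugating enzyme gene, was the single rise at 0.16, and this call was lost with hybridization-control centring, where 0 of the 7 were higher. With poly-A-control centring 4 of the 7 were lower.

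The list of genes that control SKP2 joins transcription factor genes with genes of the anaphase-promoting complex. Of its 8 genes, 6 were lower, with a median of -0.42, which has no single meaning for SKP2 in a mixed list. The transcription factor genes E2F1 (-1.16), FOXM1 (-0.98) and MYBL2 (-0.59) fell. CDC20 (-0.51), FZR1 (-0.33) and NFYA (-0.32) also fell. MYC (0.62) and CDC27 (0.19), which encodes a subunit of the anaphase-promoting complex, rose. Of the 5 CDC27 probe sets, 2 were higher and 1 lower. With hybridization-control centring 1 of the 8 was higher, and with the median over probe sets also 1. With only the classes _at and _a_at, 1 was higher and 7 were lower.

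Genes of other proteins that SKP2 is known to mark were lower in 7 of 9, with a median of -0.96. ORC1, which encodes an origin recognition subunit, was at -1.40, the replication licensing gene CDT1 at -1.27, E2F1 at -1.16 and the cyclin D1 gene CCND1 at -1.16. MYC was higher, and FOXO1 (0.01) did not pass. FOXO1 passed at -0.20 when arrays were centred on hybridization controls and at 0.18 when centred on poly-A controls.

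The list of other ligases acting on p27, p21 and p57 split into 4 higher and 4 lower of 10, with a median of -0.03. The 10 include PSME3, which encodes a proteasome activator and not a ligase. UBAC1, a partner in the KPC ligase for p27, was at -1.37, and RNF123, its catalytic subunit, at 0.30. RCHY1 (0.87), CUL4B (0.47) and PSME3 (0.22) also rose, and CDC20 (-0.51), CUL4A (-0.45) and DDB1 (-0.22) also fell. Of the 3 PSME3 probe sets, 1 was called higher. With the median over probe sets the list held 3 higher and 4 lower. DTL (-0.08) and FBXL12 (0.03) did not pass on the deposited scale. DTL passed at -0.20 with only the classes _at and _a_at and at -0.29 after hybridization-control centring. FBXL12 passed at -0.18 after hybridization-control centring and at 0.19 after poly-A-control centring. The split was 2 higher against 6 lower under hybridization-control centring, and 5 higher against 3 lower under poly-A-control centring.

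Transcription and chromatin regulators known to act on the inhibitor genes were higher in 10 of 20 measured genes and lower in 7, with a median of 0.34. With only the classes _at and _a_at the list held 7 higher and 7 lower of 17 with a median of 0.07, and after hybridization-control centring 10 higher and 9 lower of 20 with a median of 0.13. EGR1, an immediate early factor, was at 5.73, and ETS1 and ETS2, activators of CDKN2A in other cells, were at 1.97 and 1.85. ID1, an antagonist of such activators, was at -2.27. SP3 (0.08), SMAD4 (-0.10) and FOXO1 (0.01) did not pass on the deposited scale. SP3 passed at 0.12 with the median over its probe sets, at 0.25 after poly-A-control centring and at 0.11 after quantile normalization, and SMAD4 passed at -0.30 after hybridization-control centring. The SMAD4 probe sets went both ways, with 3 higher and 2 lower of 7.

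The kinases and cyclins that the inhibitors bind were lower in 10 of 13, with a median of -1.14. CCNE2 (-2.38), CCNA2 (-2.08), CDK2 (-1.33) and CCNB2 (-1.31) fell most in this list. CDK6, a kinase bound by the INK4 proteins, was the single rise: it stood at 0.51, 0.53 and 0.50 with MAP30 and at -0.52, -0.58 and -0.52 in control, a change of 1.05 ± 0.03 SE (limma adjusted p = 1.49e-07). CDK4 (0.02) and CCND2 (-0.12) did not pass, though CCND2 passed at -0.32 after hybridization-control centring. CDK4 passed at -0.19 when arrays were centred on hybridization controls and at 0.18 when centred on poly-A controls.

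Among the genes of kinase activation and other kinase-binding proteins, 3 of 11 rose and 8 fell, with a median of -0.53, and these counts were the same under both spike-in centrings. With only the classes _at and _a_at, 3 rose and 4 fell of 8, with a median of -0.23. The 3 that rose, CDK7 (1.54), CCNH (1.03) and MNAT1 (0.81), encode the subunits of the CDK-activating kinase. Each of them was measured by 1 probe set. CDC25A, a phosphatase gene that removes an inhibitory mark from CDK2, was at -1.43 and CDK2AP1, whose product binds CDK2, at -1.05.

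**Figure D4:**
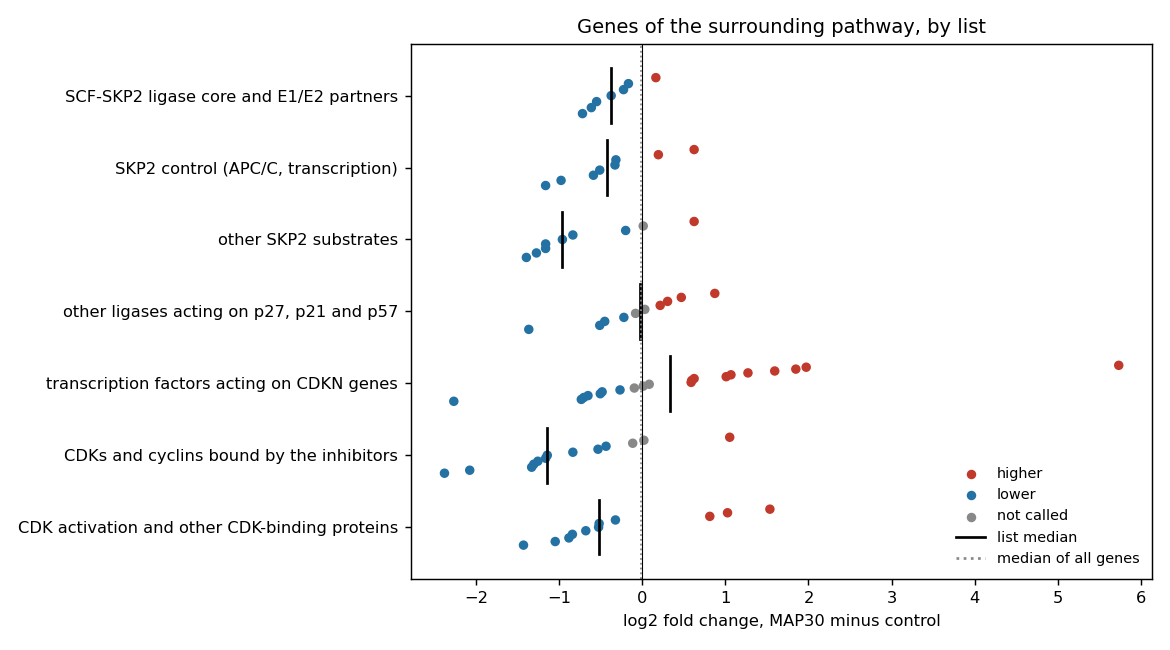
Log2 fold change of MAP30 minus control (horizontal axis) of each measured gene in the 7 lists, coloured by call; vertical black bars are list medians and the dotted line is the median of all genes. The cyclins and kinases lie lowest, with a median of -1.14, and the point at 5.73 is EGR1.

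The genes nearest to SKP2 in pattern, by the root mean square difference over the 6 arrays, were NEURL1B (0.179), SCD (0.23) and IDH1 (0.233), at log2 fold changes of -2.76, -2.62 and -2.62. Those nearest to CDKN1A were TJAP1 (0.0214), ST3GAL1 (0.0255) and PCLO (0.0296), at 1.16, 1.16 and 1.12. In a table of centred values with 2 groups, this likeness mostly reflects a similar step between the groups.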

How the data were processed

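The authors deposited log2 expression in 1 table, with 49395 probe sets on 6 arrays, 3 per group. Per the labels' protocols, total RNA was amplified from its 3' end and labelled with biotin; RMA and MAS5 appear in the submitters' processing notes, with no step given for either. The logarithm was read as base 2. Row medians are 0 to within 5e-07, so levels, background and a filter on dim probe sets were out of reach, and the number of arrays limits the precision.

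Of the probe sets, 44988 had 1 gene symbol in the platform annotation, and a gene's value was their mean (18132 genes). limma 3.58.1 in R 4.3.3 (lmFit, eBayes) was fitted to all genes and to 49293 probe sets, controls left out, and diffSplice compared probe sets within a gene. P-values are two-sided with Benjamini-Hochberg adjustment over the whole table; the threshold was 0.05. The fits were tested on simulated data. Promoters came from RefSeq, which matched 8 of the 9 genes.

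The genes, lists and tests were chosen with earlier results of these data known. All 9 genes are named; each list names its 4 largest called changes and those not called, and genes named beyond that were chosen after their values were seen. Alternatives were other gene summaries, scalings, a robust prior, a replicate block and leaving out each array.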

Additional observations from a re-analysis of the deposited data

How the results depend on the processing

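SKP2, CKS1B, CDKN1A, CDKN1B and CDKN2B kept their direction and side of the threshold under every alternative that gave a value; CKS1B has no probe set of class _at or _a_at. With poly-A-control centring CDKN1C was at -0.082 and CDKN2A at -0.012, neither passing, which left 3 of the 8 genes lower, and single probe sets of CDKN1C (11763717_a_at, 0.042) and CDKN2A (11753745_x_at, 0.039) turned sign without passing. With hybridization-control centring CDKN2D passed at -0.275, and FOXO1 (-0.20), FBXL12 (-0.18) and CDK4 (-0.19) turned sign and passed. Over all genes, 4878 were higher and 5553 lower as deposited; hybridization-control centring gave 3087 higher and 11558 lower, whereas 8906 were higher after poly-A-control centring. Each centring shifts the log2 fold changes of all genes by the same amount, but the adjusted p-values moved in other ways too. With hybridization-control centring CDKN1A went from 1.15 to 0.94, while its limma adjusted p went from 2.04e-07 to 1.45e-09. The part of the shift in these moves was not tested. When 1 array was left out, the count of probe sets that differed within a gene ran from 4 to 6, against 9. Fewer samples enter those fits, but the count was also below 9 in alternatives with all 6 arrays. It was 6 with quantile normalization, and 7 with the robust prior and with either spike-in centring. Arrays with the same number did not deviate together (r = -0.04, 0.08 and 0.01 for numbers 1, 2 and 3), so the numbers were not taken as pairs; with the replicate block 2 of the 8 genes were higher and 5 lower, 10 probe sets were lower and 6 differed within a gene. The filter on dim probe sets was not run, because levels were removed.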

Other observations

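CDKN2A and CDKN2B lie side by side on chromosome 9, between MTAP, which encodes an enzyme of methionine salvage, and the transcription factor gene DMRTA1, with the noncoding gene CDKN2B-AS1 across them. These neighbours were chosen after the values of both inhibitor genes had been seen. MTAP was lower, at -0.40 ± 0.03 SE, with 5 of its 6 probe sets lower and 1 higher. DMRTA1, with 1 probe set, was at 0.32 ± 0.04 SE, and at 0.11 without passing with hybridization-control centring. CDKN2B-AS1, with 1 probe set, stood at -0.06, 0.23 and -0.01 with MAP30 and at -0.14, 0.01 and 0.14 in control. Its groups overlapped, and its log2 fold change of 0.05 had a 95% interval from -0.17 to 0.27 (limma adjusted p = 0.704). The change of CDKN2B minus that of CDKN2B-AS1 was 2.68 on the log2 scale (exact permutation p = 0.1, the smallest possible, and 0.1 after adjustment over 4 comparisons).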
